A study of Mus musculus with 9 samples.

Results

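Chromosomes 11 and 19 of the mouse were described here because their GpC methylation was high among the autosomes in these libraries. They were chosen on the measured values, so their levels are a description and carry no test. Their members were the windows of the deposited GpC table that lie on either chromosome and have a value in all 9 libraries, 43703 on chromosome 11 and 20157 on chromosome 19. Together these were 63860 of the 786533 autosomal windows with a value in every library, or 8.12%, and 320 of the 64180 windows listed for the pair were left out. The table as a whole held 833294 windows.

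All libraries came from female FVB/CAST F1 mouse embryonic stem cells (mESC), bred from FVB/NJ mothers and CAST/EiJ fathers, expanded in 2i medium and differentiated by weaning into DME HiHi medium. One library was of undifferentiated cells at day 0, 4 were of cells with the non-silencing control hairpin (Nons) at days 4, 5, 6 and 7, and 4 were of cells with a hairpin against Smarcc1 (labelled Smarcc, and named Smarcc1 by the study) at the same days. The hairpins were introduced by virus on day 2 and cells selected with puromycin from day 3, so the day 0 library had neither. Each condition and day had 1 library, the alleles were merged, the depth per window is unknown, and no RNA was measured in these libraries, so neither the knockdown nor the cell type could be checked in them. Library medians over the other 17 autosomes ran from 6.4% (Nons at day 7) to 21.2% (Nons at day 5), and the chromosomes were therefore set against the other autosomes of the same library. Differences in points between libraries, given at the end, carry that difference in level and are read only beside those of the other autosomes.

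NOMe-seq treats fixed nuclei with a methyltransferase that methylates cytosine in GpC wherever DNA is free of nucleosomes and other bound protein, so a higher percent GpC methylation after bisulfite sequencing means more accessible DNA. Smarcc1 is a core subunit of the BAF complex, an ATP-dependent nucleosome remodeller that opens promoters and enhancers. Mouse chromosome 11 is known for its many genes, among them the Hoxb cluster and the keratin genes, and chromosome 19, the smallest autosome, is also gene-rich. Promoters of broadly used genes commonly lie in CpG islands, which are depleted of nucleosomes.

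To show what these windows look like, the 250 bases before the RefSeq start site (GRCm38.p6) are given for promoters from the ends of the range described further on, with every CpG in capitals. Map3k3 (chr11:106084337-106084586, plus strand), Ksr1 (chr11:79146474-79146723, minus strand) and Tcf7l2 (chr19:55741560-55741809, plus strand) had high GpC methylation in all 9 libraries, and Pnliprp1 (chr19:58728637-58728886, plus strand) was among the lowest. None of the 4 stretches overlaps an annotated exon. They hold 14, 25, 30 and 2 CpG, in that order, and 40, 34, 41 and 27 GpC cytosines on either strand that lie outside GCG and can therefore be read by the assay.
Map3k3: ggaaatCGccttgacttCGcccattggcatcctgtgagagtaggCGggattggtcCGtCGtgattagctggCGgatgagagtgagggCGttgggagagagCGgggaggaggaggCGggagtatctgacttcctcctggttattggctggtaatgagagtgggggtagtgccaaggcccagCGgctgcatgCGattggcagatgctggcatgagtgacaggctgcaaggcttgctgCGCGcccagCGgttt
Ksr1: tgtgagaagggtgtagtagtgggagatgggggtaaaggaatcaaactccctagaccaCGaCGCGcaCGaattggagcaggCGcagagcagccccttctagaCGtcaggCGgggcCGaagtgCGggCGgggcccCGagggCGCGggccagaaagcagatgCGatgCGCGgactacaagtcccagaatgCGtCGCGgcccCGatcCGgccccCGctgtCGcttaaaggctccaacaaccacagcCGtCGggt
Tcf7l2: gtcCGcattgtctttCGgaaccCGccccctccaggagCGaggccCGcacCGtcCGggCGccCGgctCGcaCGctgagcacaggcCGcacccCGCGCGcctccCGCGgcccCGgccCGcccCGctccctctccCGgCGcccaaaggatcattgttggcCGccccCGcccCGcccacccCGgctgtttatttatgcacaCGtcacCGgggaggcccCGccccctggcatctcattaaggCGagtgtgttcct
Pnliprp1: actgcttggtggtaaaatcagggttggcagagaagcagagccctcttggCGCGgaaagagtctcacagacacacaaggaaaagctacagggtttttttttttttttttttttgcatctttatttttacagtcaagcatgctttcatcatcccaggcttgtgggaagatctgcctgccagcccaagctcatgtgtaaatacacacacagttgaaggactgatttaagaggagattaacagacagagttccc

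In every library the median over chromosome 11 windows was above that over windows of the other 17 autosomes. It was 11.4% at day 0 against 11.3%, and 14.1%, 21.5%, 10.5% and 6.56% in Nons at days 4, 5, 6 and 7 against 13.9%, 21.2%, 10.3% and 6.4%. In the Smarcc1 knockdown it was 11.2%, 20.3%, 12.1% and 7.41% against 11.1%, 20.2%, 11.9% and 7.14%. The excess of chromosome 11 was small in each of them, between 0.0868 and 0.346 percentage points, with a mean of 0.190 ± 0.0838 (SD, n = 9 libraries). Taken as the median over 5 Mb bin medians, it was 0.118 points, above the others in 7 libraries and lowest at -0.034.

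Chromosome 19 stood at 11.4% before differentiation. Its Nons medians from day 4 to day 7 were 14.3%, 21.5%, 10.3% and 6.59%, and its knockdown medians 11.4%, 20.6%, 11.9% and 7.35%. It was above the others in 8 libraries and equal to them in Nons at day 6, with a mean excess of 0.213 ± 0.133 points (SD, n = 9 libraries). The 2 chromosomes did not lead in the same libraries. Chromosome 19 was the higher at day 4 in both arms, in Nons at day 7 and in the knockdown at day 5, and chromosome 11 at day 0, in both arms at day 6, in Nons at day 5 and in the knockdown at day 7. By the mean over windows, chromosome 11 ranked between 1 and 3 of the 19 autosomes and chromosome 19 between 1 and 5. By median, chromosome 11 ranked 5 at worst and chromosome 19 ranked 9 at worst. The values are ratios of small whole numbers, so medians coincide, and by median chromosome 10, with an average rank of 2.78, came before chromosome 19, with 3.22. In points, the excess was larger in the upper part of the distribution, where the levels are also higher. At the 10th percentile of windows it was 0.050 points for chromosome 11 and 0.0704 for chromosome 19, whereas at the 99th it was 1.52 and 1.13. At the 25th percentile it was 0.1075 points (above in 9 libraries) and 0.141 (above in 8), so it was not confined to the upper part.

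Promoter windows, those that span an annotated start of a coding gene or of a long non-coding RNA, stood furthest above the other autosomes. On chromosome 11 their median was 15.1% at day 0 against 13.6%, and 18.5%, 30.0%, 14.0% and 8.94% in Nons against 17.2%, 27.1%, 12.9% and 7.96%. In the knockdown it was 14.9%, 25.6%, 15.6% and 10% against 13.5%, 24.0%, 14.5% and 8.75%. Chromosome 11 promoters were thus above in 9 of 9 libraries, by a mean of 1.47 points, and ranked first of 19 in 7 of them.

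Promoters of chromosome 19 were above in 8 libraries, by a mean of 0.734 points, and at Nons day 6 they were at 12.8% against 12.9%. Intergenic windows had a mean excess of 0.252 points on chromosome 11 and 0.161 on chromosome 19. Genic windows, those that overlap a gene body at least in part but hold no start site, were the class in which chromosome 11 stood out least. Their excess was 0.0694 points, above the others in 6 libraries and equal in 3. On chromosome 19 the genic excess was 0.186 points, above the others in 7 libraries and equal in 2. It ranked first of 19 in 5 libraries and 12 at worst.

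**Figure D1:**
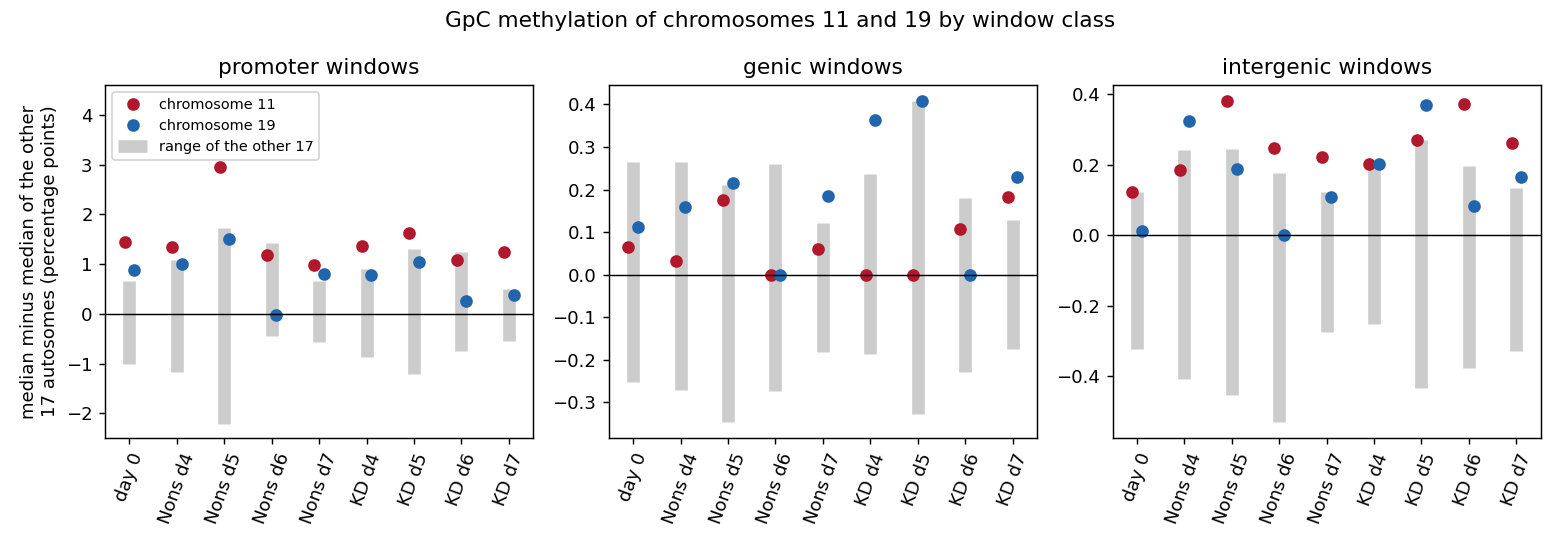
Median GpC methylation of chromosomes 11 (red) and 19 (blue) minus the median of the other 17 autosomes, in percentage points, by window class and library (Nons, non-silencing control; KD, Smarcc1 knockdown; d, day), with grey bars for the range of the other 17; the vertical scales differ between panels. Chromosome 11 promoters sit 0.979 to 2.94 points above, and its genic windows 0 to 0.183 points above.

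By distance to the nearest start site, the excess was highest close to it. Within 1 kb the excess was 1.27 points on chromosome 11 and 1.02 on chromosome 19, above in 9 of 9 libraries for both. Between 1 and 5 kb it was 0.246 points on chromosome 11 and 0.146 on chromosome 19, where 6 libraries were above. Between 5 and 20 kb it was 0.205 and 0.233 points, and between 20 and 100 kb 0.111 and 0.187, so on chromosome 19 it did not decline steadily. Beyond 100 kb neither chromosome was high, with -0.0333 points for chromosome 11 (above in 5 libraries) and -0.0484 for chromosome 19 (above in 2). Both chromosomes also hold fewer such windows, 18.2% and 16.9% compared with 22.4% on the others.

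The excess varied along both chromosomes. Of 25 bins of 5 Mb on chromosome 11, 9 (36.0%) were above the other autosomes in all 9 libraries and 2 were below in all. On chromosome 19, 4 of 13 bins (30.8%) were above in all and 0 below in all. Over all 495 autosomal bins 14.5% were above in all libraries and 13.1% below. As the chromosomes were chosen for high levels, nothing is read from that contrast beyond where the high bins lie. The windows of the 9 high bins of chromosome 11 were 39.1% of its windows, and without them its mean excess was -0.0759 points. Without the 4 high bins chromosome 19 had 0.0975 points. These bins were picked on the same values, so both figures had to come down. With the high bins of the other autosomes left out as well, the excess was 0.0361 points for chromosome 11 and 0.210 for chromosome 19.

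**Figure D2:**
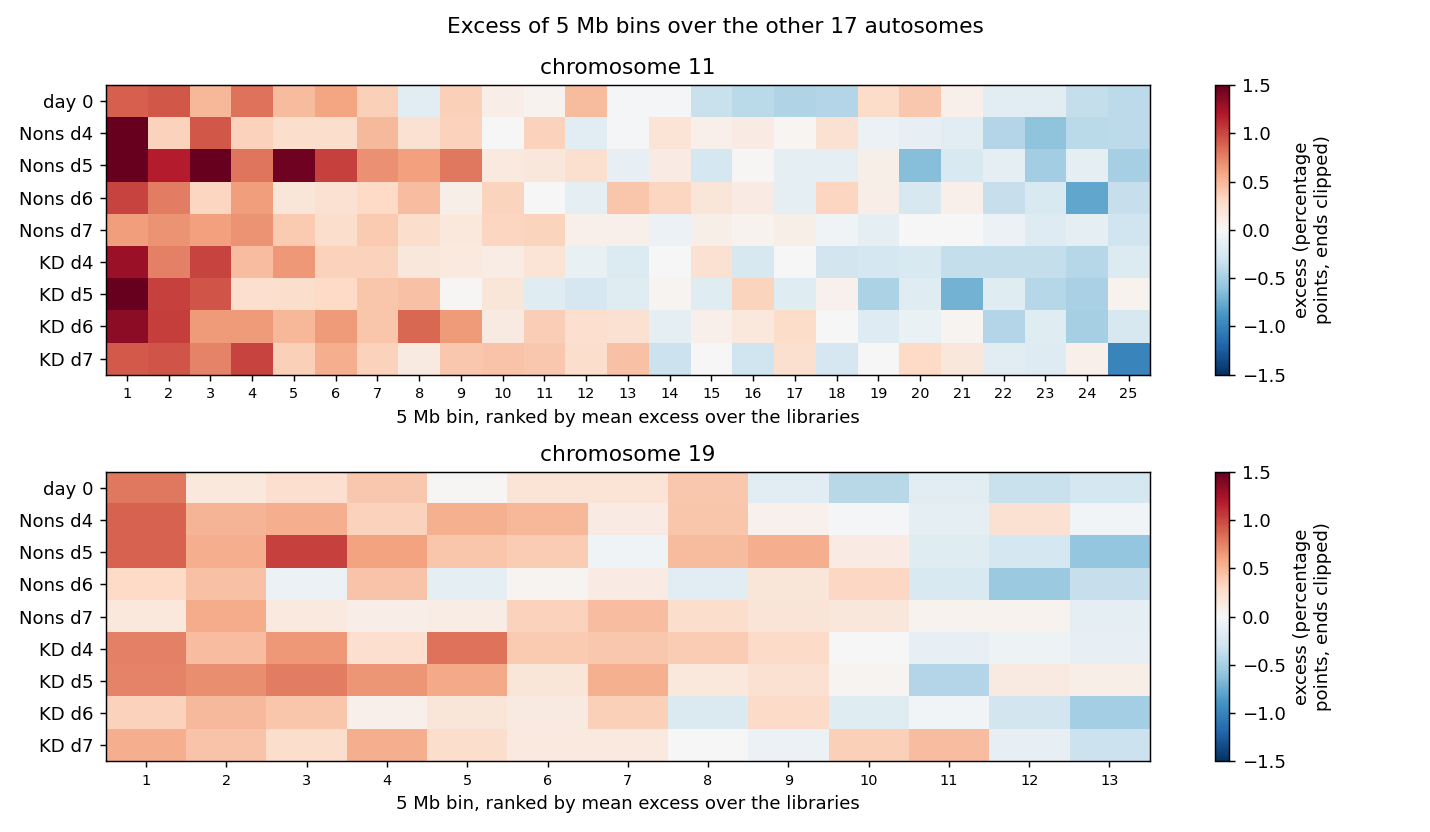
Excess of each 5 Mb bin over the median of the other 17 autosomes (colour, percentage points, clipped at the ends of the scale) in the 9 libraries (rows), with bins of chromosome 11 (25) and chromosome 19 (13) ranked from left to right by their mean. The leftmost bins are red in every library, and the rightmost are blue in most.

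The bin at 95 to 100 Mb of chromosome 11 had the highest mean excess of all 495 autosomal bins, 1.26 points. Undifferentiated cells had a median of 12.2% there. Nons cells had 15.5%, 23.4%, 11.4% and 7.03% from day 4 to day 7, and knockdown cells 12.4%, 21.7%, 13.2% and 8.06%, each above the other autosomes. It holds 211 start sites, among them the Hoxb genes, which pattern the body axis, and part of the type I keratins, which build epithelial filaments. The highest promoter windows in it belonged to Atp5g1, a subunit of ATP synthase, to Npepps, an aminopeptidase, and to Kpnb1, the nuclear import receptor importin beta. Genic (0.934 points) and intergenic windows (1.35) of the bin were above in 9 of 9 libraries as well as promoters (1.63). The bin was named for the median over these same windows, so their being above was favoured by the choice.

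The next bins of chromosome 11 were 85 to 90 Mb, with 0.850 points and place 5 of 495, 100 to 105 Mb, with 0.809 points and place 6, and 75 to 80 Mb, with 0.627 points and place 16. The first holds Cltc, the clathrin heavy chain, and Srsf1, a splicing factor. The 100 to 105 Mb bin holds Eif1, a translation initiation factor, Stat3, which relays LIF signalling, and the shared promoter of Brca1 and Nbr1. The bin at 75 to 80 Mb holds Ksr1, a scaffold of the Ras pathway, and Suz12, a subunit of Polycomb repressive complex 2. The remaining bin among the highest 5, at the start of the chromosome (0 to 5 Mb), had 0.505 points. At the other end were 10 to 15 Mb, with -0.367 points and 17 start sites, 55 to 60 Mb, with -0.354, and 45 to 50 Mb, with -0.319. Only the last of these was below in all 9 libraries. The bin at 55 to 60 Mb held 116 start sites, so a low bin was not always a gene-poor one.

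On chromosome 19 the highest bin was 40 to 45 Mb, with 0.602 points and place 18 of 495. Undifferentiated cells had 12.1% in it, Nons cells from day 4 to day 7 had 14.8%, 22.1%, 10.6% and 6.56%, and knockdown cells 11.9%, 20.9%, 12.2% and 7.69%. It holds Scd1, which desaturates fatty acids, and Got1, an aspartate aminotransferase. The bin at 30 to 35 Mb followed with 0.477 points, and holds Gldc, of the glycine cleavage system, and Dkk1, an inhibitor of Wnt signalling. Of the other 3 among the highest 5, 0 to 5 Mb (0.443 points) and 5 to 10 Mb (0.309) were above in 8 libraries and 25 to 30 Mb (0.381) in 9. The lowest were 50 to 55 Mb (-0.252 points), 15 to 20 Mb (-0.136) and 55 to 60 Mb (-0.0877). The last of these nevertheless holds the Tcf7l2 promoter, one of the highest on the chromosome. The profile of bins was positively correlated between libraries, more closely on chromosome 11 than on chromosome 19. Over the 36 pairs of libraries the median Pearson r was 0.770 for the 25 bins of chromosome 11 (range 0.505 to 0.915) and 0.549 for the 13 bins of chromosome 19 (0.292 to 0.850), beside 0.633 for the 457 bins of the others. The libraries share the windows and their base composition, so these correlations are descriptive.

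Smaller bins of 1 Mb resolved the stretches further. On chromosome 11, 28 of 119 were above the other autosomes in all 9 libraries and 11 below in all, and on chromosome 19 these counts were 16 and 7 of 59. Of all 2395 autosomal 1 Mb bins, 13.2% were above and 12.4% below. The highest of the 2395 was at 69 to 70 Mb of chromosome 11, inside a 5 Mb bin that averaged 0.0706 points. Its level was 12.9% in undifferentiated cells, 16.2%, 24.2%, 12% and 7.45% in Nons from day 4 to day 7, and 13.3%, 23.2%, 13.9% and 8.86% in the matching knockdown libraries, a mean excess of 2.06 points. This megabase carries 71 start sites, including Trp53, Per1 of the circadian clock, the mitotic kinase Aurkb, the H3K27 demethylase Kdm6b and Polr2a, the largest subunit of RNA polymerase II. Bin 96 to 97 Mb, with the Hoxb cluster, came next with 2.00 points, and 97 to 98 Mb and 88 to 89 Mb took places 7 and 10 with 1.72 and 1.58 points.

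Low megabases lay close by. The lowest on chromosome 11, at 81 to 82 Mb, had -1.42 points, and its protein-coding starts are those of Asic2, a neuronal ion channel, and 5530401A14Rik. The bin at 71 to 72 Mb, with the inflammasome genes Nlrp1a and Nlrp1b, had -1.38. On chromosome 19 the highest was 45 to 46 Mb with 1.45 points, which holds Fgf8, Tlx1 and Btrc. A few Mb further on, 48 to 49 Mb, with Sorcs3, a neuronal sorting receptor, as its one protein-coding start, had -1.37 points and was the lowest. The part of the olfactory receptor cluster at 13 to 14 Mb, with 34 start sites, had -1.03 points. The megabase before it, 12 to 13 Mb, also holds many olfactory receptor genes among its 43 start sites. It had 0.255 points and was above in 8 libraries.

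**Figure D3:**
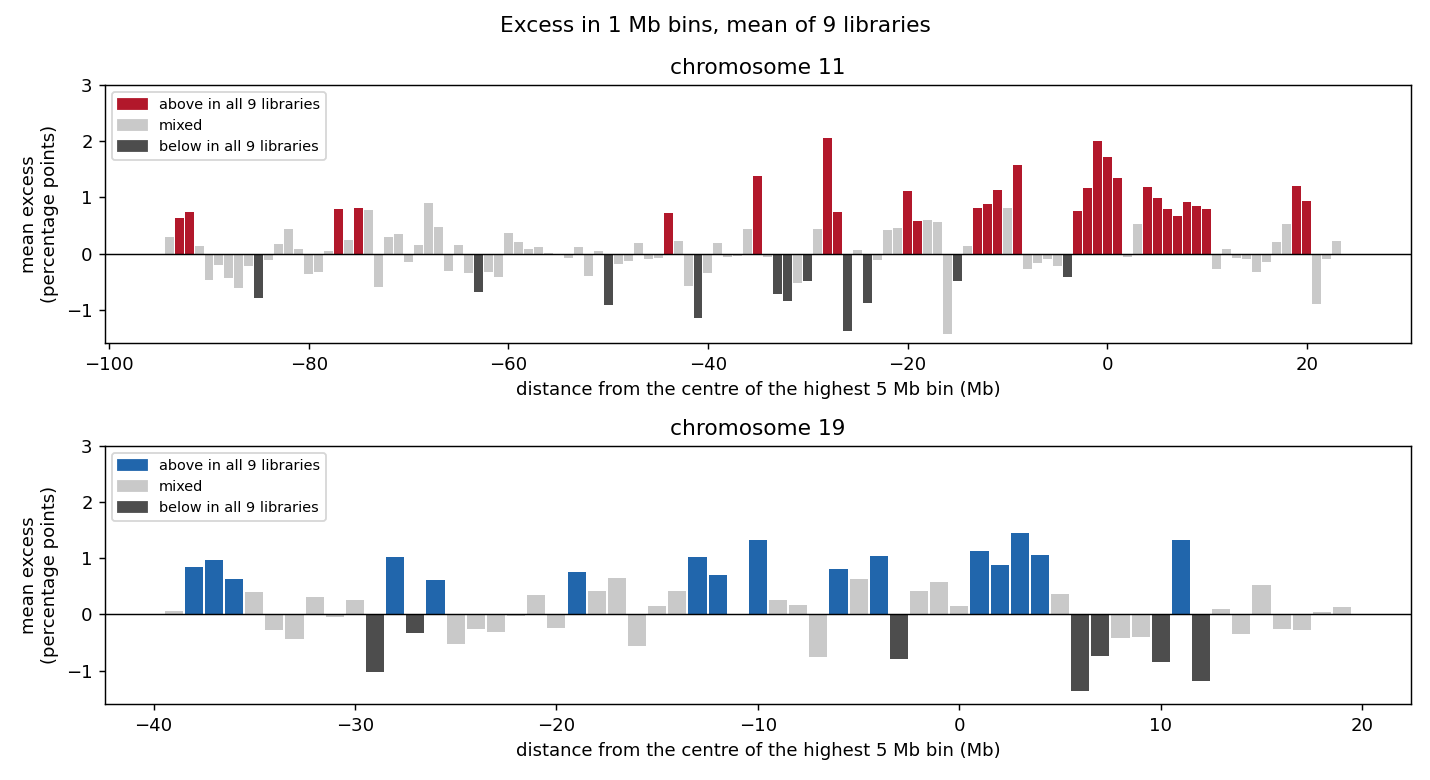
Mean excess over the 9 libraries (percentage points) of 1 Mb bins along chromosomes 11 and 19, by distance in Mb from the centre of the chromosome's highest 5 Mb bin. Coloured bars were above the other autosomes in all 9 libraries, dark bars below in all 9, and grey bars mixed; on chromosome 11 the coloured bars crowd around 0, and the single highest bar, at 2.06 points, lies apart from them.

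After these values had been seen, the 75 to 110 Mb stretch of chromosome 11 was set against the rest of the chromosome. It holds 31.5% of the chromosome's windows and 39.1% of its start sites. Its mean excess was 0.567 points (0.370 to 0.886 over the libraries), whereas the rest had 0.0254 points (-0.183 to 0.136) and was above the others in 5 libraries. The limits were drawn around bins already seen to be high, so this contrast was fixed in advance. Within the stretch, the 80 to 85 Mb bin had -0.0874 points and the 90 to 95 Mb bin -0.0154. Bins above in all 9 libraries also lay outside the stretch, such as 20 to 25 Mb with 0.416 points. Promoters differed less between the stretch and the rest. Their median at day 0 was 15% inside and 15.1% outside against 13.6% on other autosomes, and in Nons at day 5 it was 29.9% and 30.0% against 27.1%, although at day 6 it was 14.9% and 13.6% against 12.9%. Intergenic windows inside the stretch were above those of the other autosomes by 0.460 to 0.930 points in each library, and genic windows by 0.232 to 0.638. Outside it, intergenic windows were above by 0 to 0.277 points, and genic windows were below the others in 8 libraries.

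Gene density was matched next. Chromosome 11 has 17.6 start sites per Mb and chromosome 19 has 16.2, compared with 13.3 on the other autosomes. When windows were matched to those of other autosomes on 5 groups of gene density of their 5 Mb bin, the excess was 0.163 points for chromosome 11 and 0.217 for chromosome 19, next to 0.190 and 0.213 unmatched. Matching on the number of start sites in the 1 Mb around a window left 0.129 and 0.188 points. In the group of lowest density it was -0.0210 and -0.104 points, and in the highest 0.220 and 0.281. The middle group had 0.180 and 0.308 points and the group above it 0.222 and 0.256, so there was no steady rise. The end groups of chromosome 19 were only 2 and 3 bins, and its lowest ran from -0.526 to 0.363 over the libraries. The 11 densest bins of chromosome 11 hold 22336 of its windows. Chromosome 7 has the most start sites per Mb, 20.4, and was the lowest autosome by median in all 9 libraries. Across bins, Spearman's rho of mean excess with start sites was 0.344 on chromosome 11 (25 bins) and 0.416 on chromosome 19 (13 bins), beside 0.0712 over the 457 others. Matching on class left 0.203 and 0.201 points, on GC content 0.174 and 0.253, on window length 0.192 and 0.237, on the density of readable GpC 0.191 and 0.246, and on soft-masked repeats 0.187 and 0.226.

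Of the properties matched 1 at a time, CpG density lowered the excess most. Chromosome 11 windows had a median of 8.96 CpG per kb and chromosome 19 windows 8.80, against 7.65 on the others. Matching on 10 equal groups of CpG density left 0.0930 points for chromosome 11 and 0.132 for chromosome 19, each above 0 in 8 of 9 libraries. The group of highest CpG density held 14.4% of chromosome 11 windows and 13.5% of chromosome 19 windows. In it, chromosome 11 still had 0.341 points more than other autosomes and chromosome 19 had 0.285, both above in 9 of 9 libraries. In the other 9 groups the mean excess of chromosome 11 lay between -0.030 and 0.12 points. On chromosome 19 it ran from -0.192 in the lowest group to 0.204, and was above 0.15 points in each of the 5 groups below the highest. For the 75 to 110 Mb stretch matching on CpG density left 0.358 of the 0.567 points, for the 69 to 70 Mb bin 1.5 of 2.06, and for the Hoxb bin at 96 to 97 Mb 1.47 of 2.00, each above 0 in 9 libraries. The stretch and both bins were picked for high values in these same libraries. The choice therefore favoured a remainder above 0, and nothing is read from its sign. The windows were not matched on all properties at once, and the part of sequence composition in the excess was not tested.

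**Figure D4:**
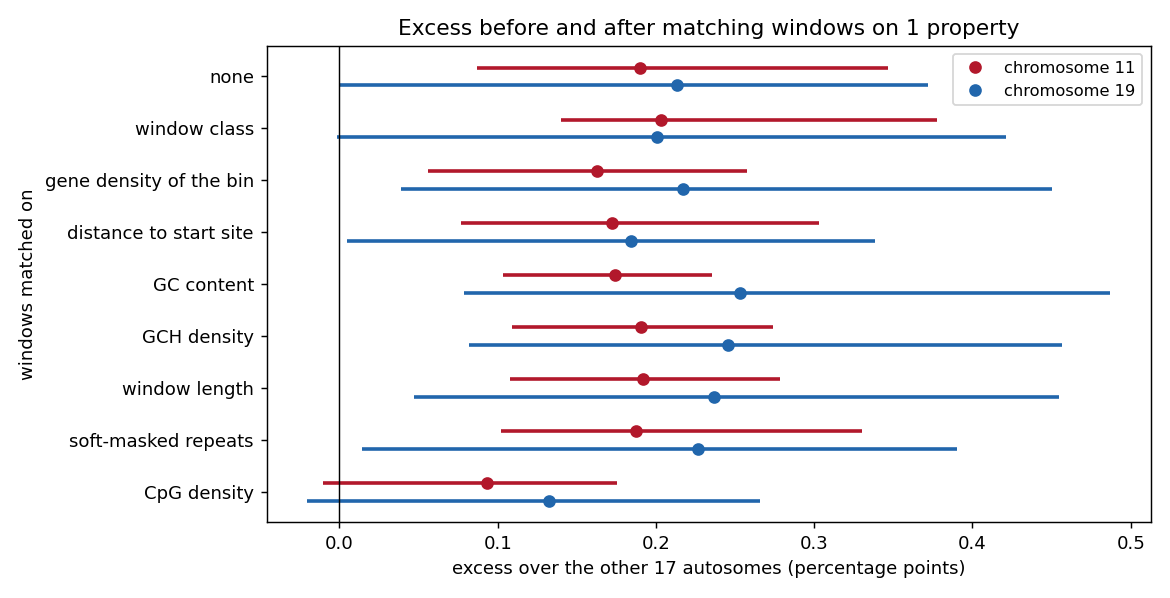
Excess of chromosomes 11 and 19 over the other 17 autosomes (percentage points) before matching and after matching windows on 1 property at a time; points are means and lines the range over 9 libraries. CpG density brings the mean down from 0.190 to 0.0930 (chromosome 11) and from 0.213 to 0.132 (chromosome 19), more than any other property shown.

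For promoters most of the excess was gone after matching on CpG density. Chromosome 11 promoters had a median of 20.3 CpG per kb, the highest of the autosomes, chromosome 19 promoters 17.6, and the others 14.1. Of chromosome 11 promoter windows 28.4% fell in the highest of 5 groups of CpG density and 10.2% in the lowest. Within the highest group the level was 23.1% on chromosome 11, 22.7% on chromosome 19 and 22.8% on the others, as means of library medians, and within the lowest it was 11.6%, 12% and 12.3%. Matched on CpG density, promoter excess came down from 1.47 to 0.0759 points on chromosome 11 (above 0 in 6 libraries) and from 0.734 to 0.129 on chromosome 19 (above in 5). Protein-coding starts were also more common, 78.1% and 74.5% of promoter windows compared with 62.1%, and matching on that alone left 0.768 and -0.0591 points. GC content alone left 0.204 and 0.395 points and window length alone 0.559 and 0.684, so the loss was not particular to CpG density.

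**Figure D5:**
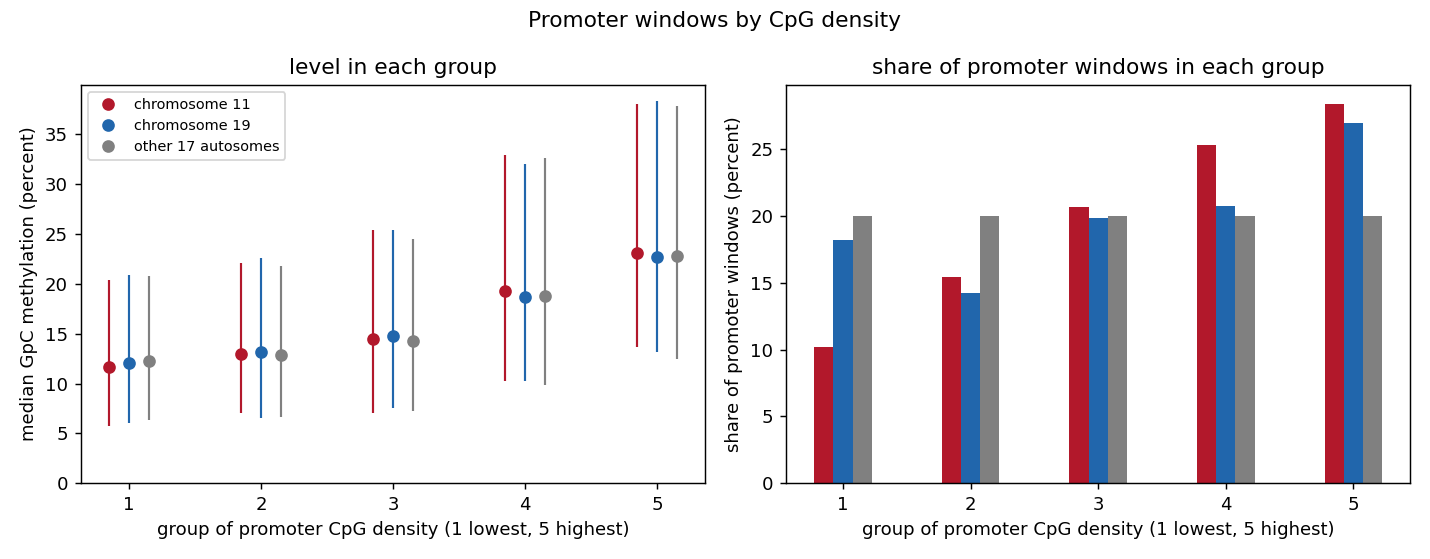
Left, median GpC methylation (percent) of promoter windows in 5 groups of CpG density on chromosome 11, chromosome 19 and the other 17 autosomes (point, mean of 9 library medians; line, range over libraries). Right, the share of promoter windows of each set in each group; levels are alike within groups (23.1%, 22.7% and 22.8% in the highest), and chromosome 11 has 28.4% of its promoters in the highest and 10.2% in the lowest.

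Single promoters were ranked by their percentile among autosomal promoter windows, averaged over the libraries. The window at the start of Map3k3, a kinase upstream of the MAP kinases (chr11:106084153-106085538), was the highest of both chromosomes at a mean percentile of 97.1. Undifferentiated cells had 44.6%, Nons cells 48.1%, 63.0%, 27.3% and 56.7% by day, and knockdown cells 32.8%, 49.5%, 33.3% and 33.3%, so all 9 values were high but unequal. Ksr1 (96.1), Tmem220 (95.6), Eif1 (95.2), the transcriptional repressor Mnt (94.9) and the shared window of the synaptic adhesion gene Nlgn2 and Tmem256 (94.8) followed on chromosome 11. Every one of these was above the 76th percentile in all libraries, whereas single values moved widely, as for Ksr1, which had 22.9% in the knockdown at day 4 and 83.3% at day 6.

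On chromosome 19 the first was the window of Lpxn, a focal adhesion adaptor, and Zfp91 (95.9). The window of AC126029.2 and Mus81, a DNA repair nuclease (94.97), Hnrnpul2 with Ttc9c (94.9), AC132957.1 (93.7), Tcf7l2, the Wnt effector (92.4), and Shoc2, a Ras pathway scaffold, with Bbip1 (92.2) came after it. For Tcf7l2, undifferentiated cells had 29.5%, Nons cells 38.6%, 51.8%, 44.1% and 34.5% by day, and knockdown cells 20%, 38.4%, 35.5% and 20%. The lowest were Olfr412 (11), 9930111J21Rik1 with Olfr56 (11.5) and Olfr329-ps (15.8) on chromosome 11, and Gm28374 (16.0), Pnliprp1, a pancreatic lipase relative (16.9), and AC100263.1 with AC100263.2 (17.2) on chromosome 19. The Pnliprp1 window had 6.90% in undifferentiated cells, 5.73%, 21%, 8.64% and 4.12% in Nons by day, and 9.38%, 15.9%, 7.58% and 0% in the knockdown by day. Read against the sequences above, the 3 high promoters had 92.4 (Map3k3), 70.7 (Ksr1) and 73.3 (Tcf7l2) CpG per kb over the whole window, and Pnliprp1 had 8.74.

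Promoter windows above the 75th percentile in all 9 libraries numbered 18 of 1884 on chromosome 11 (0.955%) and 7 of 886 on chromosome 19 (0.790%), beside 0.606% of all 29559 autosomal promoter windows. Besides those named, they included Taf15, Pank3, Cltc, B3gnt2, Fbxl20, Atp5g1, Hoxb9 and the Brca1 and Nbr1 window on chromosome 11, and Ehd1 and the window of Map3k11 and Pcnx3 on chromosome 19. Of the 18 on chromosome 11, 10 lay within 75 to 110 Mb, where 734 of the 1884 windows lie. The stretch and the 18 windows were both picked on these values, so nothing is read from that count.

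Gene families on the same chromosome differed widely. Tissue-restricted families that sit in clusters were low. The 80 Olfr promoter windows of chromosome 11, of odorant receptors, had a median mean percentile of 31.9, with 0 above 50, and the 66 of chromosome 19 had 33.5, with 2 above 50. Chemokine genes (Ccl, 11 windows, 31.1), Krt (27, 37.5) and keratin-associated Krtap genes (23, 36.0), the muscle myosins (Myh, 6, 36.0) and Slfn genes (9, 38.3) on chromosome 11 were in the same range. So were the membrane-spanning Ms4a genes (19, 33.8), Cyp2c monooxygenases (15, 30.4) and organic ion carriers (Slc22a, 10, 30.5) on chromosome 19. The 3 Slc22a windows of chromosome 11 had 57.6. The Krtap promoters, though low, lie in the 95 to 100 Mb bin, the highest of the autosomes. Their own megabase, 99 to 100 Mb, also holds part of the Krt genes. It had -0.0648 points and was above the other autosomes in 4 libraries.

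Housekeeping and developmental families had median percentiles above 50, though not every member did. The 7 ribosomal protein promoters of chromosome 11 had 69.98, all above 50, with Rpl38 at 86.8 and Rpl26, the lowest, at 63.1. BAF subunit promoters had 74.2 (Bcl11a), 68.0 (Smarce1) and 76.3 (Smarcd2) on chromosome 11 and 56.6 (Dpf2) and 60.9 (Smarca2) on chromosome 19. Of the 9 Hoxb promoters with a window 7 were above 50, with a median of 61.6, from 46.6 for Hoxb8 to 86.7 for Hoxb9. All 8 developmental factors on chromosome 11 (median 66.3) and all 8 with a window on chromosome 19 (71.6) were above 50, from Pitx3 at 52.6 to Tcf7l2 at 92.4. Ebf1, a B-cell and neuronal factor, was at 88.1, Sox9 at 78.3 and Vax1 at 84.9. Of a list of well-known single genes, Stat3 was at 84.8, Top2a at 82.9, Trp53 at 76.4, Malat1 at 70.3 and imprinted Grb10 at 52.2. Median CpG density ran from 3.61 per kb in the Olfr windows of chromosome 19 to 62.4 in the BAF windows of chromosome 11. The families were not matched on it. These lists were chosen with results of these data known, and genes whose starts share a window share its value.

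From day 0 to Nons day 5, when every autosome was higher, chromosome 11 promoters were higher by a median of 13.6 points and chromosome 19 promoters by 13.5, ranks 1 and 2 of 19, beside 12.1 for the others (range 11.2 to 13.1). These promoters already stood higher at day 0, so the lead in points is not read as a larger relative rise. The log2 ratio of the chromosome 11 promoter median to that of the others was 0.145 at day 0 and 0.149 at Nons day 5. For chromosome 19 promoters it was 0.0905 and 0.0785. On the other days the promoters did not lead in this way. Their differences from day 0 were 3.32 and 3.91 points at Nons day 4 against 3.43 (ranks 13 and 3), -0.669 and -0.957 at day 6 against -0.679 (ranks 9 and 15), and -5.70 and -5.24 at day 7 against -5.33 (ranks 16 and 7). Over all windows the values were 9.77 and 9.85 points against 9.68. At Nons day 7 the differences from day 0 were -4.70 and -4.68 points, beside -4.68 for the others.

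The knockdown was compared with Nons day by day. At day 4 the median difference was -2.82 points on chromosome 11 and -2.81 on chromosome 19, against -2.79 on the others. Day 5 gave chromosome 11 the lowest of the 19 values, -1.29 points against -1.06 (range of the 17 others -1.22 to -0.907), and for promoters -3.89 against -2.67 (-3.25 to -2.15). Chromosome 19 had -0.996 points over all windows at day 5, and its promoters, at -3.28, were also below the range of the others. Day 6 gave 1.58 points on chromosome 11 and 1.61 on chromosome 19 against 1.49, and for promoters 1.501 and 2.47 against 1.505 (0.879 to 2.07), with chromosome 19 at rank 1. Day 7 gave chromosome 11 the highest value, 0.761 points against 0.650 (0.561 to 0.701), with 0.718 on chromosome 19. Promoters had 0.984 and 0.40 points on that day against 0.751, ranks 5 and 18. These ranks have no replicate behind them. As the log2 ratio of the chromosome median to that of the others, the knockdown minus Nons difference of chromosome 11 was -0.0020, -0.017, 0.0058 and 0.017 at days 4 to 7, with a mean of 0.0010 (p = 0.875 by an exact permutation test that flips the signs of the 4 days, two-sided, adjusted p = 1 over 4 values). Its promoters had a mean of -0.0055 (exact permutation p = 1). Chromosome 19 had 0.0047 over all windows (exact permutation p = 0.250) and -0.016 in promoters (exact permutation p = 0.625), each with an adjusted p of 1. With 4 days the smallest p is 0.13, so this design could not reach 0.05.

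Across 5 Mb bins, limma with day as a block and Benjamini-Hochberg adjustment called 0 of the 38 bins of both chromosomes, and 0% of all 495 autosomal bins. At an unadjusted p under 0.05 there were 0 of the 38 and 17 of the 495. The smallest p among the 38 was 0.0568, for 5 to 10 Mb of chromosome 19, with a log2 difference of 0.032 (95% interval -0.0012 to 0.065) and an adjusted p of 0.851. The 95 to 100 Mb bin of chromosome 11 was above the other autosomes by 1.52, 2.21, 1.02 and 0.631 points in Nons at days 4 to 7 and by 1.29, 1.53, 1.34 and 0.922 points in the knockdown, so the arms overlapped. Days are points of a time course and not replicates, so these p-values bear only on a difference shared by all days.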

How the data were processed

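The authors bisulfite-sequenced GpC methyltransferase-treated nuclei with the Accel-NGS Methyl-Seq kit, aligned reads with Bismark to mm10 with FVB and CAST variants masked, and quantified in Seqmonk. The deposited values are percent GpC methylation in windows of 200 read positions with alleles merged. They differ in level between libraries, and no counts or depths accompany them, so no counting interval could be given.

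Here, each library was analysed on its own. The excess is the median of a chromosome, class or bin minus that of the other 17 autosomes. Bins of 5 Mb needed 200 windows and bins of 1 Mb needed 100. Matching took the difference of medians within each of 5 or 10 groups of a property, set on the other autosomes, and averaged them by the chromosome's share of windows. Bins were tested with limma 3.58.1 (R 4.3.3), day as a block, on log2 ratios, with Benjamini-Hochberg adjustment, after the scripts (Python 3.11.15, pandas 2.3.3, NumPy 2.4.6) had been tested on simulated data. By rule, the 5 highest and 3 lowest 5 Mb bins by mean excess, the 6 highest and 3 lowest promoter windows by mean percentile and listed families were named for each chromosome, and other genes were named after their values were seen. Members and lists were chosen with earlier results of these data known. The 1 Mb bins, the 75 to 110 Mb stretch, the CpG matching and the printed sequences were chosen after values were seen. Sequences came from RefSeq (GRCm38.p6).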

Additional observations from a re-analysis of the deposited data

Results flagged for a closer look

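The knockdown difference of the log2 ratio changed sign between days in 4 comparisons, each with 1 library per arm and day, and none of these differences between days was tested. Over all windows of chromosome 11, day 7 (0.017) and day 5 (-0.017) were 0.035 apart. In its promoters, day 4 (0.030) and day 5 (-0.054) were 0.084 apart. On chromosome 19, day 6 (0.0092) and day 7 (-0.0011) were 0.010 apart over all windows, and in promoters day 6 (0.028) and day 7 (-0.074) were 0.10 apart.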

How the results depend on the processing

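Of 62 alternatives over 15 results, 8 turned the sign, 8 moved the value by more than the SD over libraries or, for counts, by over 1.5 times, and 46 did neither. Among the excesses in those 46, that of chromosome 11 by bin medians (0.118 points), and that of chromosome 19 matched on CpG density (0.132) or without its high bins (0.0975), were still over 1.5 times lower. The excess of chromosome 11 was 0.279 points by the mean over windows. With 2 Mb bins, 17 of 60 bins on chromosome 11 (28.3%) and 11 of 30 on chromosome 19 (36.7%) were above in all libraries, beside 12.5% on the others, and with 10 Mb bins 4 of 13 on chromosome 11 (30.8%) beside 10.3%. Of the alternatives chosen after seeing the data, matching on CpG density left 0.0930 points for chromosome 11, 0.0759 for its promoters and 0.129 for those of chromosome 19. Leaving out 75 to 110 Mb left 0.0254 points, and leaving out the bins high in all libraries -0.0759. What was left out had been picked on these same values, so both figures had to come down.

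The knockdown difference of chromosome 11 over all windows was -0.031 in percentage points and -0.0013 after quantile normalization. Leaving out each day in turn gave -0.0045 to 0.0071, for its promoters -0.017 to 0.011, for chromosome 19 0.0031 to 0.0066 and for its promoters -0.031 to 0.0028. It was negative for chromosome 11 without day 6 (-0.00061) or day 7 (-0.0045), positive for its promoters without day 5 (0.011) or day 6 (0.00037), and positive for chromosome 19 promoters without day 7 (0.0028). The cause was not tested. limma called 0 of the bins of both chromosomes under every alternative. The arms were paired by day in both tests of the knockdown. No paired analysis was possible by replicate number because the labels give none. Depth per window is unknown.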
